A study of Homo sapiens with 18 samples.

Results

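A list of 40 secreted or shed factors of the senescence-associated secretory phenotype (SASP) was followed across the study: the matrix metalloproteases and their inhibitors, the plasminogen activator system, chemokines, interleukin-1, growth and angiogenic factors, colony-stimulating factors, and members of the TGF-beta superfamily with STC1. The rule named them by role and used no measured value, but the list was chosen with earlier results of these data known. They make up 40 of the 33121 genes listed in the count table. The family of IL6 and the IGFBP family were kept out of the list. Of the 40 members, 27 had enough counts to be tested and 13 did not, and none was without a count in every library.

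The RNA came from RPE-1, a human retinal pigment epithelial cell line immortalized with telomerase (hTERT). Cells were transfected for 2 days with siControl, a control siRNA, with siMlx, which targets Mlx, or with siMondoA, which targets MondoA. They were untreated, or were incubated afterwards with doxorubicin (DXR), a topoisomerase poison that breaks DNA, at 150 ng/ml for 3 days. This gave 6 groups of 3 libraries: siControl, siMlx and siMondoA untreated, and the same with DXR. MondoA, encoded by MLXIP, is a glucose-responsive transcription factor that binds DNA as a pair with MLX. The labels give neither the number nor the sequence of the siRNAs, and all groups are of 1 cell line. The library names carry the tag D0 in untreated and D5 in DXR-treated libraries, so DXR and the day of harvest cannot be told apart. Nothing in the labels says that the replicates were separate cultures, and p-values then measure only the spread between these libraries, which may be technical.

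Cells that leave the cell cycle for good after DNA damage often secrete proteases, chemokines and growth factors that act on neighbouring cells and matrix. Damage signalling through NF-kB and C/EBP-beta drives the inflammatory branch of this secretome, with IL-1-alpha on the cell surface as an upstream trigger, while TGF-beta ligands, matrix proteases and their inhibitors form a branch that remodels tissue. In the retinal pigment epithelium, VEGF, TIMP and TGF-beta family factors are known for their part in keeping Bruch's membrane and the choroidal vessels.

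Total counts per library ran from 15503423 to 29219280. MLXIP fell from 68.7 ± 4.6 to 3.85 ± 0.65 CPM (the TMM-scaled share of a library's counts; mean ± SD, n = 3) with siMondoA in untreated cells, and MLX from 26.3 ± 0.95 to 7.0 ± 0.18 with siMlx. With DXR, MLXIP was at 64.6 ± 1.7 with siControl and 2.36 ± 0.65 with siMondoA, and MLX at 26.5 ± 0.21 with siControl and 5.52 ± 0.53 with siMlx. MLX was higher with siMondoA, at 49.2 ± 2.6 CPM untreated. Of 12 listed markers of retinal pigment epithelium, RPE65 had at most 1 count in an untreated siControl library and TYR and TTR had none there. OTX2 was at 21.3 ± 1.1 CPM and PAX6 at 25.6 ± 1.3. The summed CPM of the 12 was 178.2 to 188.1 in these libraries, most of it from markers not named here. In untreated siControl libraries the summed CPM of 6 leukocyte markers was 102.8 to 129.0, of which CD68, a lysosomal protein, held most (113.6 ± 13), while PTPRC stood at 0.749 ± 0.32 CPM and CD3E had no count. That of 5 endothelial markers was 4.95 to 6.2 CPM, most of it KDR (3.90 ± 0.56), with CDH5 at 0.0111 ± 0.019. CDKN1A, the cell cycle inhibitor p21, rose with DXR by log2 3.34 (SE 0.08, adjusted p = 6.33e-16), and MKI67, a proliferation marker, fell by 2.11 on the log2 scale (SE 0.33, adjusted p = 1.75e-05). Because these are bulk samples, fewer cells that make a transcript and less of it per cell cannot be told apart.

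Promoter sequence is shown here for the members whose windows held the words searched. Windows of 300 bases, from 250 before to 50 after the start site, came from RefSeq on GRCh38.p14 and were found for 30 of the 40 members. The NF-kB word (GGGA, any 2 bases, then TTCC, on both strands) was in the windows of CXCL1, CXCL2, CXCL3, CXCL5 and CXCL10, which is 16.7% of the members with a window, and in 1.61% of all 35116 windows. The neutrophil-attracting chemokines CXCL1, CXCL2, CXCL3 and CXCL5 lie together on chromosome 4 and carry the word in capitals in these 30-base stretches, read 5′ to 3′ on the strand of the gene.
CXCL1 (chr4:73869304-73869333, plus strand): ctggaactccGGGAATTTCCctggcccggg
CXCL2 (chr4:74099254-74099283, minus strand): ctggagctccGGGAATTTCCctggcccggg
CXCL3 (chr4:74038749-74038778, minus strand): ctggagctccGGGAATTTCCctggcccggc
CXCL5 (chr4:73998749-73998778, minus strand): catgagttcaGGGAATTTCCccagcatccc
The word in the first 3 began 77 to 79 bases before the start site and that of CXCL5 90 or 91 bases before it, depending on the strand read. These 4 genes were not tested, since CXCL3 reached the level of the low-count filter in 2 libraries and the other 3 had at most 7 counts in any library.

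CXCL10, an interferon-induced chemokine that draws T cells through the receptor CXCR3, also holds the NF-kB word, and it is the member with the largest change between groups described below. Its window (chr4:76023448-76023747, minus strand) is printed whole, with the NF-kB word and an interferon-response word in capitals. The interferon word (TTTC, any 2 bases, then TTTC, on both strands) was chosen after the values of CXCL10 had been seen. It was in 3.57% of all windows and, among the members, in that of CXCL10 (3.33% of the members with a window).
CXCL10: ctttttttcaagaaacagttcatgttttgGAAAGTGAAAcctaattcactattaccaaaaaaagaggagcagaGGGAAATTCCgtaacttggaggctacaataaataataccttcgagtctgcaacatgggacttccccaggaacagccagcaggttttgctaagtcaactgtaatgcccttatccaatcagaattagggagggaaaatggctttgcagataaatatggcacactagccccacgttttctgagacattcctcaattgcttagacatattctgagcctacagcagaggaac
The E-box CACGTG, the core of the paired sites that MondoA and MLX bind, was in the windows of SERPINE2 and TGFB2 (6.67% of the members with a window) and in 7.26% of all windows. It is in capitals in the 30-base stretches below.
SERPINE2 (chr2:224031548-224031577, minus strand): ctgatgctaggtCACGTGgtcacatgccct
TGFB2 (chr1:218345275-218345304, plus strand): gttgaaggcagaCACGTGgttcagagagaa
The AP-1 word TGANTCA was in the windows of IL1A, MMP10, PLAUR and SERPINB2 (13.3%), against 7.71% of all windows. The TATA word TATAAA was in those of 11 members (36.7%), against 11.5% of all windows. For each word searched, the member share counts genes with the word in any of their windows, while the share of all windows counts single windows. The 2 shares are thus not in the same unit. These are matches of letters in a fixed window and not measured binding sites.

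The members differed widely in level. On the scale of the deposited RPKM, which is per gene length and so allows genes to be compared, MMP2 was at 665 ± 42 RPKM (SD, n = 3) in untreated siControl cells, MMP14 at 489 ± 20 and TIMP2 at 276 ± 8.4. MMP2 is the secreted gelatinase A, MMP14 the membrane protease that activates it, and TIMP2 an inhibitor that also forms part of the activation complex. PLAT followed at 179 ± 9.7, and then TGFB1 and SERPINE2 at 136 ± 16 and 134 ± 6.4, whose libraries overlapped. In these cells IL1B stood at 4.98 ± 0.83 RPKM, CCL2 at 2.30 ± 0.80 and IL1A at 0.385 ± 0.096, and MMP3, CCL20 and HGF had no count. The members made up 0.701% to 0.881% of all counts in untreated libraries and 1.04% to 1.18% in DXR-treated ones, without overlap, and MMP2 with MMP14 held 50.7% to 57.1% of the members' summed CPM in each library.

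**Figure D1:**
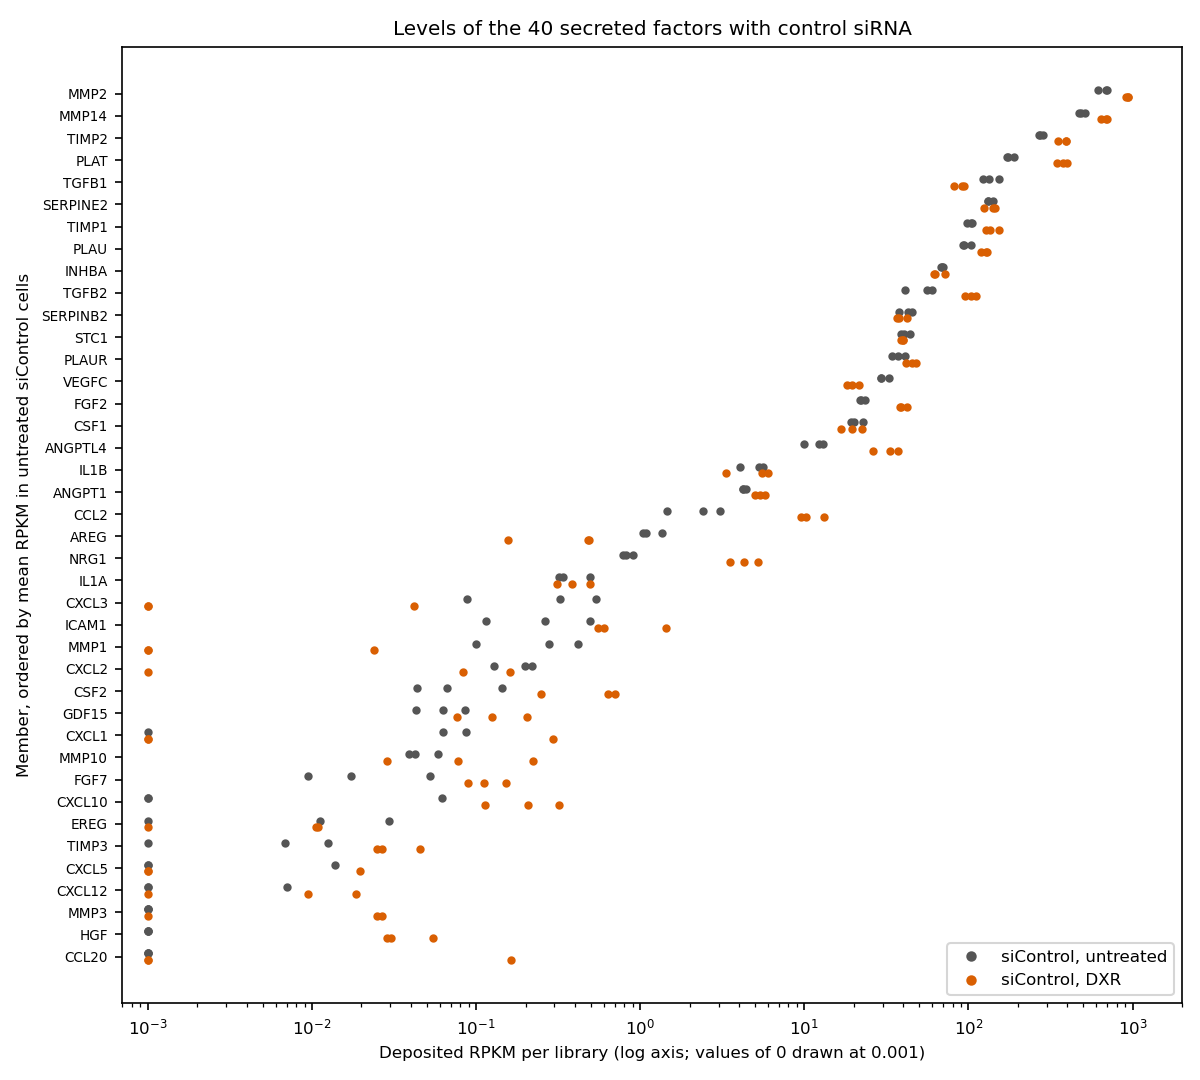
Deposited RPKM of the 40 members in the 3 untreated (grey) and 3 DXR-treated (orange) siControl libraries, on a log axis, with values of 0 drawn at 0.001. MMP2, at an untreated mean of 665 RPKM, sits at the top with MMP14 and TIMP2, while MMP1, MMP3, MMP10, TIMP3 and each chemokine other than CCL2 have an untreated mean below 1 RPKM.

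With the control siRNA, MMP2, MMP14, TIMP1, TIMP2, PLAT and PLAU were higher with DXR, while VEGFC and TGFB1 were lower. Of the 27 tested members, 16 were higher and 4 lower in DXR-treated than in untreated siControl cells. The background was high, since 56.7% of all 13676 tested genes passed the same test, 28.1% as higher and 28.6% as lower. A gene passed where its p from edgeR, adjusted over all tested genes, was under 0.05. The median log2 fold change was 0.47 over the tested members and -0.01 over all tested genes. MMP1 reached the level of the low-count filter (0.514 CPM) in untreated libraries alone, and FGF7 and CXCL10 in DXR-treated libraries alone. MMP1 and FGF7 thus entered the test through the treatment in which they were higher. CXCL10 reached the level in siMondoA libraries with DXR alone, so neither siControl group brought it into the test. Among the 24 other members, 14 were higher and 3 lower, with a median of 0.44.

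Among the metalloproteases, MMP2 stood at 2568, 2622 and 2284 CPM in the untreated siControl libraries and at 3679, 3691 and 3774 with DXR. MMP14 stood at 1653, 1802 and 1687 CPM and at 2617, 2376 and 2582 in the same order. Neither gene's groups overlapped. MMP2 rose by log2 0.58 (SE 0.09, adjusted p = 1.18e-05) and MMP14 by 0.56 (SE 0.08, adjusted p = 3.38e-06). The collagenase MMP1 had 6, 11 and 23 counts in the untreated libraries and 1, 0 and 0 with DXR, a ratio of 0.0322 with a 95% exact counting interval of 0.000795 to 0.190. MMP1 thus moved opposite to the gelatinase system, from a level that was low to begin with. MMP3 (stromelysin-1) and MMP10 (stromelysin-2) had at most 2 and 8 counts in a library.

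The inhibitors rose about as much as the proteases. TIMP1, the general inhibitor of soluble metalloproteases, was at 152, 160 and 159 CPM untreated and at 252, 218 and 213 with DXR, a change of log2 0.54 (SE 0.06, adjusted p = 5.1e-07). TIMP2 was at 1021, 977 and 954 CPM and rose to 1502, 1463 and 1341 (log2 0.54, SE 0.06, adjusted p = 1.24e-07). Groups did not overlap for either gene. TIMP3, an inhibitor that stays bound to matrix, was left untested, with at most 6 counts in a library.

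In the plasminogen system, the protease genes rose and the serpin genes gave no call. PLAT, tissue-type plasminogen activator, was at 538, 592 and 528 CPM untreated and at 1156, 1285 and 1254 with DXR (log2 1.16, SE 0.09, adjusted p = 1.47e-09). PLAU, urokinase, rose by 0.47 (SE 0.08, adjusted p = 9.38e-05) and its receptor PLAUR by 0.36 (SE 0.07, adjusted p = 0.000232). SERPINE2, the inhibitor protease nexin-1, had a log2 fold change of 0.12 (SE 0.08, adjusted p = 0.254), and SERPINB2, plasminogen activator inhibitor 2, one of -0.01 (SE 0.11, adjusted p = 0.924). Libraries of the untreated and DXR groups overlapped for both serpins.

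CCL2 and CXCL10 were the tested chemokines, and both rose. CCL2, which recruits monocytes, was at 1.77, 2.24 and 1.05 CPM in untreated siControl libraries and at 10.3, 7.32 and 8.06 with DXR. Its groups were far apart, and it rose by log2 2.37 (SE 0.28, adjusted p = 7.53e-07). CXCL10 had 0, 0 and 2 counts untreated and 8, 5 and 3 with DXR, a ratio of 10.3 (95% exact counting interval 2.42 to 92.3). Its call was lost without untreated siControl replicate 1 (adjusted p = 0.0633) or without DXR-treated replicate 1 (adjusted p = 0.0687). The neutrophil chemokine CXCL3 went the other way, with 3, 12 and 10 counts untreated and 1, 0 and 0 with DXR (ratio 0.0515, interval 0.00125 to 0.315). CXCL8, a related chemokine outside the list, fell by 1.49 on the log2 scale (SE 0.50, adjusted p = 0.0153). CXCL1, CXCL2, CXCL5, CCL20 and CXCL12 had at most 7 counts in any library.

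Interleukin-1 gave no call. IL1A, the alarmin placed upstream of the inflammatory secretome, was at 0.970, 1.43 and 0.902 CPM untreated and at 1.17, 1.48 and 0.959 with DXR. IL1B, which is secreted after cleavage by caspase-1, was at 9.16, 9.68 and 6.85 CPM untreated and at 10.1, 10.8 and 6.14 with DXR. The groups overlapped for both, with log2 fold changes of 0.16 (SE 0.27, adjusted p = 0.637) and 0.08 (SE 0.25, adjusted p = 0.804). ICAM1, the adhesion molecule that binds leukocyte integrins and is shed by senescent cells, was at 0.836, 1.58 and 0.361 CPM untreated and at 4.84, 2.0 and 1.87 with DXR. It rose by log2 1.72 (SE 0.47, adjusted p = 0.00415), and its call was lost without DXR-treated siControl replicate 1, the highest library (adjusted p = 0.0560).

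Of the growth and angiogenic factors, NRG1, ANGPTL4, FGF2, FGF7 and ANGPT1 rose. NRG1, a neuregulin that activates ERBB3 and ERBB4, was at 6.96, 6.11 and 6.28 CPM untreated and at 29.1, 34.6 and 43.2 with DXR. ANGPTL4, a secreted inhibitor of lipoprotein lipase that also acts on vessels, was at 23.6, 19.0 and 24.4 CPM and at 76.0, 67.1 and 53.9. Both sets of libraries were fully apart, and the log2 fold changes were 2.46 (SE 0.16, adjusted p = 2.19e-10) for NRG1 and 1.55 (SE 0.14, adjusted p = 3.05e-08) for ANGPTL4. FGF2, basic fibroblast growth factor, rose by 0.92 (SE 0.09, adjusted p = 1.24e-07), and ANGPT1, the agonist of the receptor TIE2, by 0.42 (SE 0.14, adjusted p = 0.0180), a call that was lost without DXR-treated siControl replicate 3 (adjusted p = 0.0722). FGF7, keratinocyte growth factor, had 2, 4 and 1 counts untreated and 9, 7 and 13 with DXR. HGF, hepatocyte growth factor, had no count in untreated siControl libraries and 4, 7 and 4 with DXR. This was 6.44-fold higher against a floor of 3 counts over the untreated group. The lower limit of the 95% exact counting interval of the ratio was 4.62.

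The EGF receptor ligand AREG (amphiregulin) and the lymphangiogenic factor VEGFC fell. AREG was at 1.30, 1.27 and 1.62 CPM untreated and at 0.204, 0.614 and 0.623 with DXR, lower by log2 -1.53 (SE 0.36, adjusted p = 0.00126). VEGFC was at 59.4, 60.3 and 65.4 CPM and at 46.8, 38.9 and 42.4 (log2 -0.53, SE 0.10, adjusted p = 0.000205). In both genes each DXR library was below each untreated library. The related ligand EREG had at most 4 counts in a library. In the TGF-beta family the ligands TGFB2 and TGFB1 moved in opposite directions. TGFB2 was at 347, 326 and 234 CPM and rose to 643, 581 and 696 (log2 1.08, SE 0.15, adjusted p = 3.36e-06), while TGFB1 was at 335, 391 and 305 CPM and fell to 248, 250 and 221 (log2 -0.52, SE 0.13, adjusted p = 0.00194). INHBA, the activin A subunit, CSF1, macrophage colony-stimulating factor, and STC1, a glycoprotein hormone, had log2 fold changes of 0.02, 0.01 and 0.03 (SE 0.11, 0.10 and 0.06) and no call. CSF2, granulocyte-macrophage colony-stimulating factor, had 1, 1 and 3 counts untreated and 4, 10 and 12 with DXR (ratio 6.69, interval 2.53 to 22.3), and GDF15, a stress-induced cytokine, had 0 to 7 counts in each of the 18 libraries. A row near 0 need not mean a transcript near 0 in the cells, since MIF, a gene that most cells use, has no count in any library of this table.

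**Figure D2:**
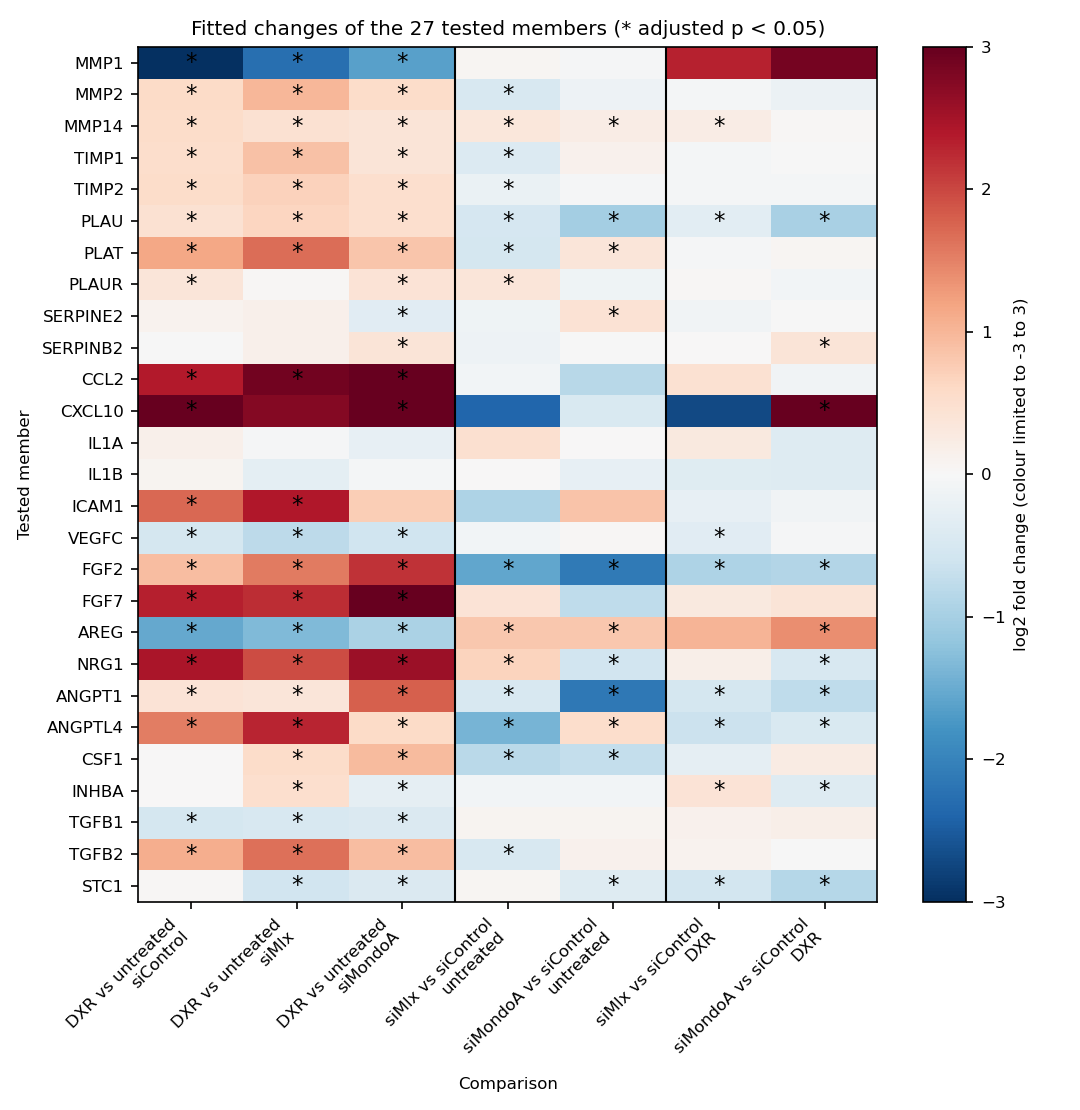
Fitted log2 fold change of the 27 tested members (rows, ordered by role) in 7 comparisons (columns), with colour limited to -3 to 3 and a star where the adjusted p is under 0.05. The 3 DXR columns on the left are mostly red, with 16, 16 and 17 stars for higher members, while the siRNA columns on the right hold stars of both colours.

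The response to DXR was also measured within each siRNA. With siMondoA, 17 tested members were higher and 7 lower, where 54.2% of all tested genes passed (26.2% higher, 28.0% lower). With siMlx 16 were higher and 5 lower, where 62.1% passed (30.9% higher, 31.2% lower). The medians were 0.50 and 0.55 over the members and -0.02 and 0.00 over all genes. MMP1, FGF7 and CXCL10 reached the filter level in untreated or in DXR-treated libraries alone. Among the 24 other members, 15 were higher and 6 lower with siMondoA, and 15 were higher and 4 lower with siMlx. In all 3 siRNA arms, 13 members were called higher: MMP2, MMP14, TIMP1, TIMP2, PLAU, PLAT, CCL2, FGF2, FGF7, NRG1, ANGPT1, ANGPTL4 and TGFB2. Another 4 were called lower in each arm: MMP1, VEGFC, AREG and TGFB1. Of these, FGF7 and MMP1 entered the test only through libraries of the treatment in which they were higher. Of all tested genes, 17.1% were called higher in all 3 arms and 17.1% lower. Some of these calls rested on single libraries. That of ANGPT1 with siMlx (adjusted p = 0.0426) was lost without untreated siMlx replicate 1 or 2 or DXR-treated siMlx replicate 2 or 3, with adjusted p up to 0.225. That of MMP1 with siMondoA (adjusted p = 0.0445) was lost in 6 of 12 alternatives, each of them DESeq2 or a siMondoA library left out, with adjusted p up to 0.151, and with siMlx it was lost without DXR-treated siMlx replicate 2 (adjusted p = 0.05). That of AREG with siMondoA was lost without untreated siMondoA replicate 3 (adjusted p = 0.065). INHBA was called in opposite directions, higher with siMlx (log2 0.51, SE 0.11, adjusted p = 0.000361) and lower with siMondoA (-0.27, SE 0.11, adjusted p = 0.0394). The latter call was lost without untreated siMondoA replicate 2 or 3 or DXR-treated siMondoA replicate 2 or 3, with adjusted p up to 0.207.

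Without DXR, FGF2, ANGPT1, PLAU and CSF1 were lower and AREG and MMP14 higher with both siRNAs, while PLAT, NRG1 and ANGPTL4 were called in opposite directions. With siMondoA, 5 tested members were higher and 6 lower than with siControl, where 46.6% of all tested genes passed (23.3% in each direction). With siMlx, 4 were higher and 10 lower, where 47.9% passed (24.9% higher, 23.0% lower). The share of members past the test was 40.7% with siMondoA and 51.9% with siMlx, near these backgrounds. The members' medians were -0.03 and -0.13, and those of all genes 0.02 and 0.02. Both comparisons use the same 3 siControl libraries, so their effects are not independent of each other.

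FGF2 was at 154, 147 and 143 CPM in the siControl libraries, at 33.2, 36.9 and 31.7 with siMondoA and at 46.7, 51.8 and 51.4 with siMlx. All 6 knockdown libraries were well below all siControl libraries, and the siMondoA libraries were below the siMlx libraries. FGF2 fell to 22.9% of the control level with siMondoA (log2 -2.12, SE 0.10, adjusted p = 3.26e-12) and to 33.7% with siMlx (log2 -1.57, SE 0.10, adjusted p = 1.22e-10). FGF2 (chromosome 4, 122826708 to 122898236, GRCh38) shares 804 exonic bases with the antisense gene NUDT6, and the strand setting of the counting is not given. NUDT6 itself was at 2.23 ± 0.51 CPM with siControl and 2.43 ± 0.20 with siMondoA.

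ANGPT1 was at 18.7, 17.9 and 17.7 CPM with siControl, at 4.12, 3.36 and 5.02 with siMondoA and at 11.5, 10.4 and 16.9 with siMlx. The siMondoA libraries were the lowest, and siMlx replicate 3 came close to the control libraries without reaching them. The log2 fold change was -2.14 (SE 0.17, adjusted p = 6.29e-09) with siMondoA and -0.49 (SE 0.15, adjusted p = 0.0113) with siMlx, and the siMlx call was lost without siMlx replicate 1 (adjusted p = 0.0556) or 2 (adjusted p = 0.0847). The direct difference between the siRNAs was -1.66 (SE 0.18, adjusted p = 1.83e-07). PLAU was at 246, 276 and 240 CPM with siControl, at 127, 132 and 118 with siMondoA and at 183, 203 and 153 with siMlx, again in the order siMondoA below siMlx below siControl with no overlap. It fell by 1.01 on the log2 scale (SE 0.09, adjusted p = 1.03e-08) with siMondoA and by 0.50 (SE 0.08, adjusted p = 6.36e-05) with siMlx. PLAU (chromosome 10, 73909177 to 73917497) shares 916 exonic bases with the antisense gene C10orf55, which was at 1.63 ± 0.52 CPM with siControl and 0.978 ± 0.16 with siMondoA.

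CSF1 was at 109, 93.2 and 94.5 CPM with siControl, at 58.4, 63.9 and 58.5 with siMondoA and at 60.2, 56.4 and 52.5 with siMlx. The knockdown libraries overlapped each other and lay below all control libraries, and the log2 fold changes were -0.72 (SE 0.10, adjusted p = 9.63e-06) and -0.81 (SE 0.10, adjusted p = 2.03e-06). AREG and MMP14 were higher with both. AREG was at 1.78, 2.39 and 3.26 CPM with siMondoA and at 2.30, 2.02 and 3.08 with siMlx, against 1.27 to 1.62 with siControl. Both calls of AREG (adjusted p = 0.0225 and 0.0220) were lost without siControl replicate 1 (0.0710 and 0.0712) or replicate 2 (0.0614 and 0.0605) and without replicate 3 of the knockdown (0.125 and 0.118). MMP14 was higher by log2 0.22 (SE 0.08, adjusted p = 0.0197) with siMondoA and by 0.33 (SE 0.08, adjusted p = 0.0011) with siMlx. Its siMondoA call was lost without siControl replicate 1 or 3 or siMondoA replicate 2 or 3, with adjusted p up to 0.0730.

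PLAT, NRG1 and ANGPTL4 were called in opposite directions by the siRNAs. ANGPTL4 was at 23.6, 19.0 and 24.4 CPM with siControl, at 33.5, 27.3 and 36.5 with siMondoA and at 9.82, 7.42 and 8.66 with siMlx. All siMondoA libraries were above and all siMlx libraries below the controls. The log2 fold changes were 0.52 (SE 0.15, adjusted p = 0.00658) and -1.38 (SE 0.17, adjusted p = 1.29e-06), and the direct difference between siMondoA and siMlx was 1.90 (SE 0.17, adjusted p = 8.34e-09). PLAT was at 724, 692 and 726 CPM with siMondoA and at 390, 403 and 353 with siMlx, above and below its controls at 528 to 592. The direct difference was 0.90 (SE 0.09, adjusted p = 2.16e-08). NRG1 went the other way, at 3.28, 4.32 and 5.50 CPM with siMondoA and at 10.5, 10.1 and 10.4 with siMlx, against 6.11 to 6.96 with siControl. Its siMlx value was higher by log2 0.68 (SE 0.17, adjusted p = 0.00287). The siMondoA value was -0.57 (SE 0.19, adjusted p = 0.0199), a call that was lost without siControl replicate 1 (0.0712), siMondoA replicate 1 (0.114) or siMondoA replicate 2 (0.0568).

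Further calls were made with 1 of the siRNAs. With siMlx, MMP2 fell by 0.49 on the log2 scale (SE 0.09, adjusted p = 0.000102), TIMP1 by 0.41 (SE 0.06, adjusted p = 1.96e-05), TIMP2 by 0.21 (SE 0.06, adjusted p = 0.00449) and TGFB2 by 0.48 (SE 0.15, adjusted p = 0.0100). PLAUR rose by 0.35 (SE 0.07, adjusted p = 0.000384). Libraries of TGFB2 overlapped between the groups, and its call was lost without siControl replicate 1 (0.0662) or siMlx replicate 3 (0.0656). With siMondoA, SERPINE2 rose by 0.43 (SE 0.08, adjusted p = 0.000297) and STC1 fell by 0.40 (SE 0.06, adjusted p = 3.13e-05). SERPINE2 was at 601, 588 and 536 CPM against 451, 418 and 409, and STC1 at 111, 127 and 116 against 148, 154 and 164, without overlap in either. The direct comparison of siMondoA with siMlx in untreated cells gave 8 higher and 6 lower members, where 58.9% of all tested genes passed (28.5% higher, 30.4% lower). These differed for MMP2 (log2 0.34, adjusted p = 0.00188), TIMP1 (0.55, adjusted p = 2.83e-07), TIMP2 (0.19, adjusted p = 0.00804), TGFB2 (0.62, adjusted p = 0.00115), PLAUR (-0.48, adjusted p = 9.35e-06), SERPINE2 (0.57, adjusted p = 9.66e-06) and STC1 (-0.46, adjusted p = 3.08e-06). ICAM1 was also higher with siMondoA than with siMlx (1.78, adjusted p = 0.016). Its call was lost without siMlx replicate 2 or 3 or siMondoA replicate 1, with adjusted p up to 0.0588. Same-numbered libraries of siControl and siMondoA correlated weakly in their deviations (0.101 to 0.330), and siMondoA replicate 2 matched siControl replicate 1 best. With the replicate number as a block, CCL2 (log2 -0.82, adjusted p = 0.0186) and ICAM1 (0.87, adjusted p = 0.0372) were also called with siMondoA, where 49.2% of all tested genes passed with the block.

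**Figure D3:**
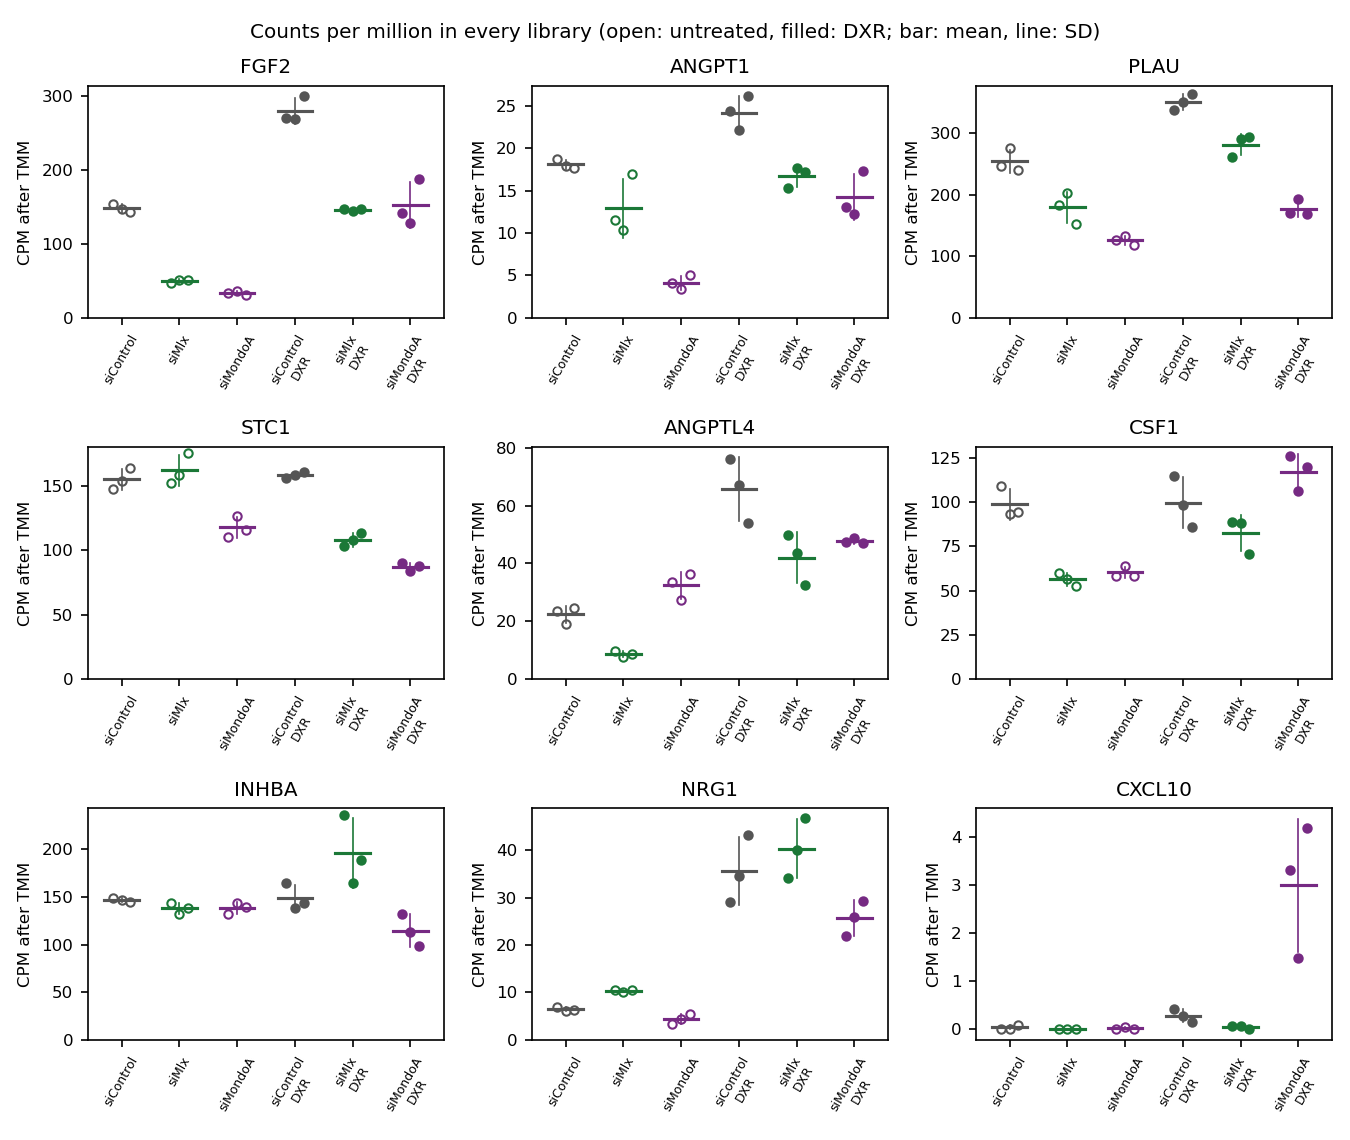
CPM after TMM of 9 members in each of the 18 libraries (open circles untreated, filled circles DXR; horizontal bar, mean; vertical line, SD of 3 libraries). FGF2 and PLAU are lower in each knockdown library than in the control libraries of the same treatment, and CXCL10 is above 1 CPM in siMondoA libraries with DXR and below 0.5 CPM elsewhere.

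With DXR, fewer members were called for each siRNA, 10 in place of 11 with siMondoA and 8 in place of 14 with siMlx. Fewer of all tested genes passed too, 24.8% in place of 46.6% with siMondoA and 30.2% in place of 47.9% with siMlx. The share of members past the test was 37% with siMondoA, beside 24.8% of all tested genes. With siMlx that share was 29.6%, near the background of 30.2%. With siMondoA, 3 tested members were higher and 7 lower than with siControl, where 24.8% of all tested genes passed (10.9% higher, 13.9% lower). The 3 include CXCL10, which entered the test through these siMondoA libraries alone. Among the 24 members other than CXCL10, MMP1 and FGF7, 2 were higher and 7 lower with siMondoA. With siMlx 2 were higher and 6 lower, where 30.2% passed (14.0% higher, 16.2% lower, or 1908 and 2221 genes, against 2506 and 1953 with upper-quartile scaling). The median was -0.06 over the members in each comparison and 0.01 over all genes. FGF2, PLAU, ANGPT1, ANGPTL4 and STC1 were lower with both siRNAs, and no member was called higher with both. AREG, called higher with siMondoA, missed the threshold with siMlx (adjusted p = 0.0606). It passed there in some alternatives, among them DESeq2 (adjusted p = 0.0472). Across the 4 comparisons of an siRNA with siControl, FGF2, PLAU and ANGPT1 were lower in each. The DXR comparisons share their 3 siControl libraries in the same way as the untreated ones.

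FGF2 was at 271, 268 and 300 CPM with siControl, at 142, 128 and 187 with siMondoA and at 147, 144 and 148 with siMlx. The knockdown libraries overlapped each other and lay below the controls. FGF2 was lower by log2 -0.87 with siMondoA (SE 0.10, adjusted p = 1.13e-06) and by -0.93 with siMlx (SE 0.10, adjusted p = 3.34e-07), and in DXR-treated knockdown cells it stood near the level of untreated control cells (143 to 154 CPM). PLAU was at 338, 350 and 364 CPM with siControl, at 171, 193 and 169 with siMondoA and at 261, 290 and 293 with siMlx. Its order matched that of untreated cells, with log2 fold changes of -0.98 (SE 0.08, adjusted p = 5.22e-08) and -0.32 (SE 0.08, adjusted p = 0.00679). The siMondoA libraries differed from those of siMlx by -0.66 (SE 0.08, adjusted p = 3.27e-06).

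STC1 was at 156, 159 and 161 CPM with siControl, at 90.1, 84.3 and 87.8 with siMondoA and at 103, 108 and 114 with siMlx. The groups were fully apart and replicates were close, and STC1 fell by 0.86 on the log2 scale (SE 0.06, adjusted p = 5.46e-09) with siMondoA and by 0.55 (SE 0.06, adjusted p = 1.43e-06) with siMlx. ANGPT1 was at 24.4, 22.1 and 26.1 CPM with siControl, at 13.1, 12.3 and 17.3 with siMondoA and at 15.3, 17.7 and 17.2 with siMlx. Its log2 fold change was -0.77 with siMondoA (SE 0.15, adjusted p = 0.000686) and -0.53 with siMlx (SE 0.15, adjusted p = 0.0092). ANGPTL4 was at 76.0, 67.1 and 53.9 CPM with siControl, at 47.2, 48.8 and 47.1 with siMondoA and at 49.7, 43.7 and 32.4 with siMlx. For both genes each knockdown library was below each control library. ANGPTL4 was lower by log2 -0.65 (SE 0.14, adjusted p = 0.00148) with siMlx. Its siMondoA value was -0.46 (SE 0.14, adjusted p = 0.0196), a call that was lost without siControl replicate 1 (0.115) or 2 (0.0558) or siMondoA replicate 1 (0.0529) or 3 (0.0530).

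INHBA, which encodes the subunit of activin A, was called in opposite directions by the siRNAs under DXR. It was at 164, 138 and 143 CPM with siControl, at 132, 113 and 98.0 with siMondoA and at 236, 164 and 188 with siMlx. The siMondoA libraries were below all controls, and the lowest siMlx library met the highest control. The log2 fold changes were -0.38 (SE 0.11, adjusted p = 0.0138) and 0.40 (SE 0.11, adjusted p = 0.00719), and the direct difference was -0.78 (SE 0.11, adjusted p = 9.03e-06). The siMondoA call was lost without siControl replicate 1 (0.0796) or siMondoA replicate 3 (0.0844), and the siMlx call without siMlx replicate 1 (0.0678).

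CXCL10 had 59, 29 and 76 counts in the siMondoA libraries with DXR, against 8, 5 and 3 with siControl and 1, 1 and 0 with siMlx. The 3 groups did not overlap, and in untreated cells no library of any siRNA had more than 2 counts. With siMondoA it was higher by log2 3.45 (SE 0.47, adjusted p = 2.85e-05). CXCL10 reached the filter level in the siMondoA libraries with DXR alone, so without them it would not have been tested. Over summed counts, siMondoA was above siMlx by a ratio of 82.1 (95% exact counting interval 22.4 to 684), and siMlx was below siControl by a ratio of 0.134 (0.0150 to 0.572). The fitted test of siMlx against siControl missed the threshold (adjusted p = 0.0632) and passed it with the replicate block (log2 -2.68, adjusted p = 0.0398). The test also passed with no low-count filter (adjusted p = 0.0175), with the compared groups alone (0.0336) and with DESeq2 (0.0493).

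With siMondoA under DXR, 8 of 33 tested other secretome genes were higher and 6 lower, 7 of 34 regulators were higher and 3 lower, and 8 of 26 genes that activate or restrain proteases and ligands were higher and 2 lower, beside 10.9% and 13.9% of all tested genes. The genes named here from those lists were picked after their values were seen. Each had a higher value with siMondoA than with siControl, and none of the genes called lower is named. CXCL11, a neighbouring ligand of the same receptor, was at 3.56 ± 2.6 CPM with siMondoA, 0.415 ± 0.19 with siControl and 0.0194 ± 0.034 with siMlx in DXR-treated cells. It was called higher with siMondoA (log2 3.07, SE 0.51, adjusted p = 0.000145), and with siMlx it had 0 to 1 counts in a library against 4 to 11 with siControl. IRF1, a transcription factor of the interferon response, was at 50.2 ± 7.1, 28.8 ± 1.1 and 18.1 ± 1.7 CPM in the same order, higher by log2 0.80 (SE 0.11, adjusted p = 1.59e-05) with siMondoA and lower by -0.67 (SE 0.11, adjusted p = 0.000159) with siMlx. CASP1, the protease that matures IL-1-beta, was at 30.3 ± 6.5, 15 ± 1.5 and 4.05 ± 1.1 CPM, and the direct difference between siMondoA and siMlx was log2 2.89 (SE 0.17, adjusted p = 5.59e-11). CCL5, another chemokine, was higher with siMondoA (1.29, SE 0.31, adjusted p = 0.00452). IL6, outside the list, was higher with siMondoA by 0.72 (SE 0.18, adjusted p = 0.00475) and had a value of 0.10 (SE 0.18, adjusted p = 0.739) with siMlx. CXCL3, CXCL2 and CXCL1 did not follow CXCL10, with at most 3 counts in a siMondoA library with DXR.

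The other calls under DXR were smaller. With siMondoA, AREG was at 1.01, 1.32 and 1.49 CPM against 0.204, 0.614 and 0.623 with siControl (log2 1.39, SE 0.38, adjusted p = 0.0108), lost without siControl replicate 1 (0.0600). SERPINB2 was at 94.4, 128 and 122 CPM against 83, 93.9 and 85.9 (log2 0.39, SE 0.12, adjusted p = 0.0178), and NRG1 at 21.8, 26.0 and 29.2 against 29.1, 34.6 and 43.2 (log2 -0.47, SE 0.14, adjusted p = 0.0178). For SERPINB2 all siMondoA libraries lay above the controls, if closely, and for NRG1 the highest siMondoA library met the lowest control. The SERPINB2 call was lost without siControl replicate 1 or 3 or siMondoA replicate 2 or 3 (adjusted p up to 0.0959), and that of NRG1 without siControl replicate 3 (0.138) or siMondoA replicate 1 (0.0933). With siMlx, VEGFC was lower (log2 -0.33, SE 0.11, adjusted p = 0.0236) and MMP14 higher (0.23, SE 0.08, adjusted p = 0.0251). Leaving out siControl replicate 1 (0.116) or siMlx replicate 2 (0.0990) ended the call of VEGFC. Leaving out siControl replicate 2 (0.129) or siMlx replicate 1 (0.0569) or 3 (0.170) ended that of MMP14. CSF2 had 0, 2 and 1 counts with siMondoA against 4, 10 and 12 with siControl, a ratio of 0.124 (0.0241 to 0.406).

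Same-numbered libraries correlated weakly in these DXR comparisons too (0.175 to 0.274 with siMondoA and 0.170 to 0.277 with siMlx), and each matched its own number best. With the replicate block, 13 members were called with siMlx in place of 8, where 33.3% of all tested genes passed with the block in place of 30.2%. With siMondoA 12 were called in place of 10, where 28.0% passed in place of 24.8%. The block added CCL2 (log2 0.44, adjusted p = 0.0349), CXCL10, IL1B (-0.35, adjusted p = 0.0436), AREG (1.02, adjusted p = 0.0185) and CSF1 (-0.27, adjusted p = 0.0124) with siMlx. With siMondoA it added IL1B (-0.40, adjusted p = 0.0291) and CSF1 (0.24, adjusted p = 0.0246). CSF1 with siMlx had just missed the threshold in the reported fit (adjusted p = 0.05). Other alternatives in which it passed include DESeq2 (adjusted p = 0.0455) and no low-count filter (0.00166). In the fit without the block, neither IL1A nor IL1B was called in any of the 11 comparisons. With no low-count filter IL1B was called with siMondoA under DXR (-0.38, adjusted p = 0.0457). Without DXR-treated siMondoA replicate 1, IL1A was called between siMondoA and siMlx under DXR (-1.04, adjusted p = 0.0117). In the direct comparison of siMondoA with siMlx under DXR, 4 members were higher and 4 lower, where 39.0% of all tested genes passed (18.9% higher, 20.0% lower), and the block, with which 42.2% passed, added MMP14 (-0.18, adjusted p = 0.0459) and CCL2. CXCL10, which entered the test through the siMondoA libraries with DXR alone, is among the 4 higher. Among the 24 members other than CXCL10, MMP1 and FGF7, 3 were higher and 4 lower.

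The difference of an siRNA's effect between untreated and DXR-treated cells was tested as an interaction. With siMondoA 6 members passed, 3 with a positive and 3 with a negative value, where 10.1% of all tested genes passed (5.84% positive and 4.28% negative, or 798 and 586 genes, against 655 and 788 with upper-quartile scaling). With siMlx 9 passed, 7 positive and 2 negative, where 12.2% passed (6.43% positive, 5.81% negative). A positive value means that the effect of the siRNA on the log2 scale was higher with DXR than without. The median interaction was -0.03 over the members with siMondoA and 0.16 with siMlx, and -0.01 and -0.02 over all genes.

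FGF2 had an interaction with both siRNAs, 1.25 (SE 0.14, adjusted p = 1.51e-05) with siMondoA and 0.63 (SE 0.14, adjusted p = 0.00453) with siMlx. Its reduction by either knockdown was smaller with DXR, and its rise with DXR was larger after knockdown, log2 2.17 with siMondoA and 1.55 with siMlx against 0.92 with siControl. CSF1 behaved alike, with 0.95 (SE 0.14, adjusted p = 0.000325) and 0.54 (SE 0.14, adjusted p = 0.0177). It was at 126, 106 and 120 CPM with siMondoA and at 89.0, 88.2 and 70.6 with siMlx under DXR, against 115, 98.3 and 85.9 with siControl, where the untreated knockdown libraries had lain at 52.5 to 63.9. The siMondoA and siMlx libraries with DXR were apart from each other (log2 0.51, SE 0.10, adjusted p = 0.000507), and each overlapped the controls.

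STC1 was negative with both siRNAs, -0.47 (SE 0.09, adjusted p = 0.00237) with siMondoA and -0.62 (SE 0.09, adjusted p = 0.000118) with siMlx, so its reduction was larger with DXR. With siMlx it had no call in untreated cells, at 152, 159 and 176 CPM, and stood at 103, 108 and 114 with DXR. ANGPT1 had an interaction with siMondoA alone by call, 1.37 (SE 0.23, adjusted p = 0.000845), and -0.04 (SE 0.21, adjusted p = 0.924) with siMlx. ANGPTL4 had interactions of opposite sign, -0.98 (SE 0.20, adjusted p = 0.00418) with siMondoA and 0.74 (SE 0.22, adjusted p = 0.0333) with siMlx. Its rise with DXR was log2 0.56 with siMondoA and 2.28 with siMlx, against 1.55 with siControl.

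**Figure D4:**
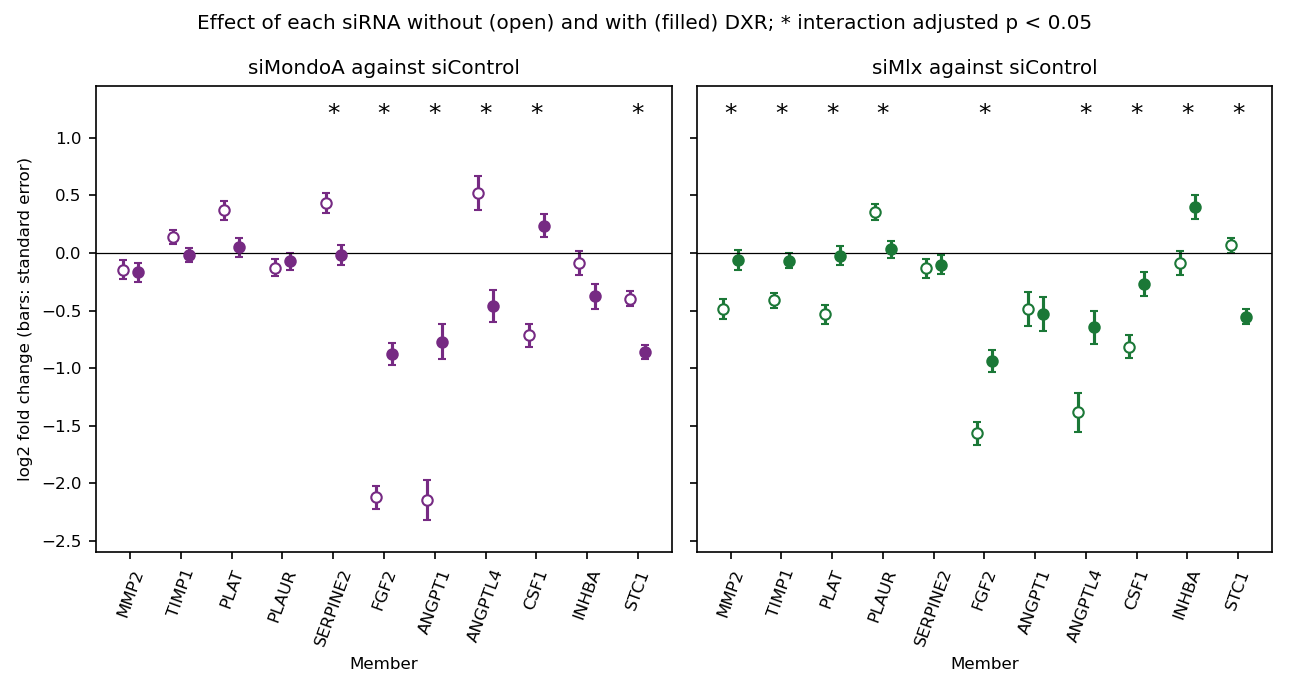
Log2 fold change of siMondoA (left) and siMlx (right) against siControl, untreated (open) and with DXR (filled), for the 11 members with an interaction past the threshold for either siRNA. Bars are standard errors and stars mark the interactions past the threshold; FGF2 moves from -2.12 to -0.87 with siMondoA and from -1.57 to -0.93 with siMlx.

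PLAT (0.51, adjusted p = 0.00816), TIMP1 (0.35, adjusted p = 0.0135) and MMP2 (0.43, adjusted p = 0.0261) had a positive interaction with siMlx. Under DXR their siMlx libraries overlapped those of siControl, with log2 fold changes of -0.02, -0.07 and -0.06, where untreated they had been lower. INHBA was also positive (0.49, adjusted p = 0.0384) and PLAUR negative (-0.32, adjusted p = 0.0409) with siMlx, and SERPINE2 was negative with siMondoA (-0.45, adjusted p = 0.0214). SERPINE2 was at 494, 410 and 465 CPM with siMondoA and at 493, 412 and 480 with siControl under DXR, so the difference seen in untreated cells was no longer present by call. The siMlx calls of MMP2, PLAUR, ANGPTL4, CSF1 and INHBA and the siMondoA call of SERPINE2 were lost in at least 3 of their 19 alternative fits, while those of FGF2, STC1, PLAT and TIMP1 with siMlx and of FGF2, ANGPT1, ANGPTL4, CSF1 and STC1 with siMondoA were kept in each of theirs.

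Other genes of the pathway were read from 4 lists written with the earlier results of these data known. Of 36 receptors of the members, 20 were tested, and 5 were higher and 10 lower with DXR in siControl cells, beside 28.1% higher and 28.6% lower of all tested genes, to which the other DXR counts below also compare. The genes named from the lists were picked with their values seen. CSF1R, the receptor of CSF1, fell by 2.22 on the log2 scale (SE 0.19, adjusted p = 8.11e-09), while its ligand gave no call. FGFR1, the main receptor of FGF2, gave 0.10 (SE 0.06, adjusted p = 0.213) with DXR and was higher in untreated cells with siMondoA (0.28, SE 0.06, adjusted p = 0.00143) and with siMlx (0.47, SE 0.06, adjusted p = 4.97e-06), where FGF2 was lower. TEK, which encodes the ANGPT1 receptor TIE2, was at 0.380 ± 0.039 CPM in untreated siControl cells and ERBB4, a neuregulin receptor, at 13.8 ± 0.19, while CCR2 and CXCR3, the receptors of CCL2 and CXCL10, had no count there. IL1RAP, the co-receptor for interleukin-1, was lower with siMondoA (-1.37, SE 0.08, adjusted p = 2.84e-11) and siMlx (-1.21, SE 0.08, adjusted p = 1.13e-10) in untreated cells.

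Of 37 regulators of the secretome, 34 were tested, and 16 were higher and 7 lower with DXR in siControl cells, where 56.7% of all tested genes passed in either direction. NFKB2 (log2 0.93, SE 0.08, adjusted p = 7.05e-09) and RELB (0.84, SE 0.12, adjusted p = 5.27e-06) of the non-canonical NF-kB pathway were higher, while NFKB1 was lower (-0.19, SE 0.08, adjusted p = 0.0466) and CEBPB, which encodes C/EBP-beta, gave no call (-0.18, SE 0.10, adjusted p = 0.143). FOSL1, an AP-1 subunit, fell with DXR (-0.71, SE 0.13, adjusted p = 8.8e-05) and with siMondoA untreated (-1.56, SE 0.13, adjusted p = 9.47e-09). Of 33 tested genes of 41 in a list of other secretome genes, 19 were higher and 6 lower with DXR, with IGFBP3 (1.62, SE 0.07, adjusted p = 3.42e-12) and IGFBP7 (1.60, SE 0.08, adjusted p = 2.01e-11) among the former. With siMlx untreated, 2 of these 33 were higher and 14 lower, beside 24.9% and 23.0% of all tested genes. Of 26 tested genes of 33 that activate or restrain the members' proteases and ligands, 14 were higher and 3 lower with DXR, beside 28.1% and 28.6% of all tested genes. Among them RECK, a membrane inhibitor of metalloproteases, was higher with DXR (0.67, SE 0.08, adjusted p = 3.52e-07) and with each siRNA in both conditions. The latent TGF-beta binding protein LTBP3 was higher with DXR (0.85, SE 0.12, adjusted p = 5.08e-06), as was the latent TGF-beta carrier LRRC32 (3.70, SE 0.50, adjusted p = 2.44e-06).

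Markers of other cell types moved with some of these groups. The summed CPM of 9 fibroblast markers was 530.1 to 610.4 in untreated siControl libraries and 831.4 to 936.4 with DXR, and that of 5 epithelial keratin and adhesion genes 497.0 to 687.8 and 1119 to 1171. With DXR, 5 of the 7 tested fibroblast markers were higher and 2 lower, both tested epithelial genes were higher, 2 of 3 tested leukocyte markers (LYZ and PTPRC) were higher, and 2 of 4 tested endothelial markers (VWF and TEK) were higher and 1 (KDR) lower. Of all tested genes 28.1% were higher and 28.6% lower. Both epithelial genes were lower with siMlx untreated. Senescence and proliferation markers moved with siMondoA as well as with DXR: MKI67 was lower with siMondoA untreated (log2 -1.37, SE 0.32, adjusted p = 0.00138), and CDKN1A was higher with siMondoA (1.13, SE 0.08, adjusted p = 4.68e-10) and siMlx (1.28, SE 0.08, adjusted p = 5.36e-11). Of 10 such markers, 3 were higher and 6 lower with siMondoA untreated, beside 23.3% of all tested genes in each direction. With siMlx untreated, 5 were higher and 0 lower, beside 24.9% and 23.0%, so MKI67 was not called lower there. The part of these changes in the levels of the members was not tested.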

How the data were processed

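The tools named are bcl2fastq, GRCh38 as the build and TopHat2 2.1.1, per the submitters' processing notes. The counting program, the annotation and the use of strand in counting are not given in the sources. The authors deposited read counts per gene and RPKM for 18 libraries. Each deposited RPKM equals the count scaled by the library total and a gene length that is whole within 0.02 bases. Libraries were grouped by the labels.

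Counts were fitted with edgeR 4.0.16 (limma 3.58.1, R 4.3.3): filterByExpr by group, TMM scaling, 1 mean per group, quasi-likelihood dispersions with 12 residual degrees of freedom, a two-sided test and Benjamini-Hochberg adjustment over 13676 genes, threshold 0.05. The model was tested on simulated data. SE is the absolute log2 fold change, fitted without edgeR's prior count, over the square root of F. The printed edgeR fold changes include that prior count. Total counts ran from 15503423 to 29219280 per library, and replicates differed by more than counting error (chi-square per degree of freedom 3.07 to 12.4). Intervals for summed counts are exact conditional binomial at 95% and, like the floor of 3 counts over a group, cover counting error only.

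The members and gene lists were chosen with earlier results of these data known. Members with the largest changes in each comparison were picked by rule, and not all of these are given per library or for each comparison. Alternatives were RLE and upper-quartile scaling, DESeq2 1.42.0, no filter, a filter of 1 CPM in 3 libraries, the compared groups alone, a replicate block, and leaving out each replicate. Replicate numbers come from the labels. Same-numbered libraries correlated in their deviations by over 0.1 in every pair for siMondoA against siControl untreated (0.101 to 0.330) and with DXR (0.175 to 0.274), siMlx against siControl with DXR (0.170 to 0.277) and siMondoA against siMlx with DXR (0.167 to 0.256). For siMlx against siControl untreated, each library matched its own number best, but replicate 2 correlated by 0.0515. Positions are from GENCODE 29 on GRCh38.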

Additional observations from a re-analysis of the deposited data

Results flagged for a closer look

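The effect of an siRNA differed between untreated and DXR-treated cells, by the interaction test, for these members. With siMondoA the interaction on the log2 scale was 1.25 for FGF2, 1.37 for ANGPT1 and 0.95 for CSF1, and it was -0.98 for ANGPTL4, -0.47 for STC1 and -0.45 for SERPINE2. With siMlx it was 0.63 for FGF2, 0.74 for ANGPTL4, 0.54 for CSF1, 0.51 for PLAT, 0.49 for INHBA, 0.43 for MMP2 and 0.35 for TIMP1, and it was -0.62 for STC1 and -0.32 for PLAUR. ANGPTL4 is the member whose interactions were called for both siRNAs with opposite signs. The share of tested members with an interaction was 22.2% with siMondoA and 33.3% with siMlx, beside 10.1% and 12.2% of all tested genes. Of these calls, 5 of 6 with siMondoA but 4 of 9 with siMlx were kept in every alternative. Both interactions use the same 6 siControl libraries.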

How the results depend on the processing

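No member changed direction past the threshold in any alternative. The number of members past the test stayed within 1.5 times the reported one except for siMlx with DXR, where the replicate block gave 13 against 8, and for the interaction of siMlx with DXR, where leaving out 1 library gave from 4 to 9 against 9. The lowest value came without siControl replicate 1, and 5 remained without siMlx replicate 2 or 3 or DXR-treated siControl replicate 3. The cause was not tested. Over all members, comparisons and alternatives, 1863 of the tests called in the reported fit stayed past the threshold and 106 did not, and 62 tests not called there passed. Most losses came from leaving out a library. DESeq2 lost MMP1 with DXR in siMondoA cells (adjusted p = 0.0637), and RLE scaling lost PLAUR in the interaction with siMlx (adjusted p = 0.0504). The block was also fitted where same-numbered libraries did not correlate by over 0.1 in every pair. There it changed calls for ICAM1 with DXR in siMondoA cells (log2 0.72, adjusted p = 0.0435) and CCL2 between siMondoA and siMlx untreated (-0.75, adjusted p = 0.0323). In the interactions it added PLAT with siMondoA (-0.33, adjusted p = 0.033) and NRG1 (-0.49, adjusted p = 0.0424) and TGFB2 (0.57, adjusted p = 0.0362) with siMlx. Fitted folds of MMP1, CXCL10 and FGF7 moved by over 1.5 times without a single library, for CXCL10 with DXR in siControl cells from log2 2.5 to 5.43, and each rests on few counts. At this depth 13 members could not be tested, each with 4 to 80 counts over the 18 libraries, and whether low transcript levels or the counting lie behind these low counts was not tested.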
